A study of Mus musculus with 12 samples.

Results

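The Usher syndrome genes measured here were Myo7a, Ush1c, Cdh23, Pcdh15, Ush1g, Adgrv1 and Whrn, 7 of the 56748 genes in the expression table, chosen by symbol. In the GENCODE annotation of GRCm38 they lie on chromosomes 7 (Myo7a and Ush1c), 10 (Cdh23 and Pcdh15), 11 (Ush1g), 13 (Adgrv1) and 4 (Whrn), and the table lists them under ENSMUSG00000030761 (Myo7a), ENSMUSG00000030838 (Ush1c), ENSMUSG00000012819 (Cdh23), ENSMUSG00000052613 (Pcdh15), ENSMUSG00000045288 (Ush1g), ENSMUSG00000069170 (Adgrv1) and ENSMUSG00000039137 (Whrn). RNA was sequenced from 2-week-old mouse retinas in 12 libraries, with 3 replicates in each of 4 groups. Het mice, RiboTag;Shp2fl/+;i75-Rod-Cre littermate controls, kept an intact Shp2 allele in rods, and KO mice, RiboTag;Shp2fl/fl;i75-Rod-Cre, had both alleles floxed. All mice, controls included, carried the RiboTag allele and a Cre expressed from a rod-specific promoter, so that no group was free of Cre or of a floxed Shp2 allele. From each genotype, mRNA bound to the tagged ribosomes of rods (rod TRAP, called rods here) and mRNA of the whole retina were sequenced. The sample titles call the controls wt, while their genotype label is heterozygous.

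Usher syndrome is an inherited loss of hearing and sight. The proteins of the type 1 genes include the motor myosin VIIa (Myo7a), the scaffolds harmonin (Ush1c) and SANS (Ush1g), and the cadherins Cdh23 and Pcdh15, whose extracellular parts join to form the tip links of inner-ear hair cells. The type 2 genes include Adgrv1, a very large adhesion receptor, and Whrn, the PDZ scaffold whirlin, which together are part of the ankle links of hair cells and of the membrane complex at the base of the photoreceptor cilium. In the retina, myosin VIIa also moves pigment granules in the retinal pigment epithelium (RPE), and its mRNA is made there as well as in photoreceptors.

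Totals of the deposited values were 16263948 to 16265259 in the rod libraries and 14525527 to 14527992 in the retina libraries, nearly equal within a fraction, as they would be if the libraries had been scaled before deposit. The reads behind them were estimated at 11890000 to 25270000 per rod library and 9980000 to 19220000 per retina library, so that 3 reads correspond to a deposited value of 1.93 to 4.1 in rods and 2.27 to 4.37 in retina. Below, a TMM value is a deposited value rescaled by the trimmed mean of M-values over all 12 libraries. The TMM values of Ptpn11, which encodes Shp2, were 2692, 2689 and 2642 in Het rods against 2060, 2578 and 2306 in KO rods, with every KO library below every Het library, as for 16.3% of genes (log2 fold change -0.23, SE 0.09, adjusted p = 0.078 in limma). In retina they were 2063, 2323 and 1910 (Het) and 1923, 1889 and 2310 (KO), and the genotypes overlapped. A value over the whole gene does not show whether the floxed part was deleted. In Het rods against Het retina, 10 of 10 rod marker genes were higher and 10 of 10 Müller glia markers were lower. Lens genes made up between 0.000977% and 5.44% of the retina libraries, and the labels and methods do not say which libraries came from separate mice, so the p-values may measure technical spread. A gene was counted as changed at a Benjamini-Hochberg adjusted p below 0.05 over all genes tested and an absolute log2 fold change above 0.5. Log2 fold changes were taken on log2(TMM value + 2), with TMM factors computed anew over the libraries of each fit. They can therefore differ slightly from what the listed TMM values give.

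Promoter sequences are shown for the 3 members with the highest values per kilobase (kb) of transcript in Het rods. RefSeq promoters on GRCm38.p6 were matched for 6 members, and Ush1g was not matched. The 250 bases before the start of Pcdh15 are chr10:73821617-73821866 on the plus strand, those of Adgrv1 are chr13:81633145-81633394 on the minus strand and those of Whrn are chr4:63495992-63496241 on the minus strand, each written from 5′ to 3′ in the direction of the gene.
Pcdh15: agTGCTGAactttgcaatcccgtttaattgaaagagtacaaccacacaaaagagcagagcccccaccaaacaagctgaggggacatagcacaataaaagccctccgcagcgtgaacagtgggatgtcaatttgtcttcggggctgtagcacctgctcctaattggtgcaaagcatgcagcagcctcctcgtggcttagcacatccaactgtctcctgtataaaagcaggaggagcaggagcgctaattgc
Adgrv1: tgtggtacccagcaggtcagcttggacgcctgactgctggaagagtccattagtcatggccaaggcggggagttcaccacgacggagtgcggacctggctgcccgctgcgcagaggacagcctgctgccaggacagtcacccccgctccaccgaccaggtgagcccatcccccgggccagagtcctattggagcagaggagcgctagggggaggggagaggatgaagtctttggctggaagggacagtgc
Whrn: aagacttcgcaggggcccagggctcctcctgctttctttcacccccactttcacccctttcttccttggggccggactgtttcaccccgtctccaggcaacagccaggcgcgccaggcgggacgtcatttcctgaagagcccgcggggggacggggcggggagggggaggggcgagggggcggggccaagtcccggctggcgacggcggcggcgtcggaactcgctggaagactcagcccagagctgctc
Capitals mark a match, on either strand, to TGCTGA, a Maf-type half-site, or to TAATCC, an OTX-type homeodomain core, and no match overlapped another. Pcdh15 held 1 TGCTGA, as do 16.1% of the 32851 promoters when searched in the same window for 1 or more, and Adgrv1 and Whrn held none. TAATCC was present in 0 of these 3 promoters and in 6.25% of all promoters. The GC content of the same 250 bases was 50.4% for Pcdh15, 64.4% for Adgrv1 and 69.6% for Whrn, beside a median of 52.4% over all promoters. The transcripts differed in the same order, with 44.8% GC for Pcdh15, 46.8% for Adgrv1 and 63.2% for Whrn.

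The members split into 4 genes that were measured in every library and 3 that were close to 0 in rods. Levels are compared between genes per kb of the longest protein-coding transcript. Pcdh15 had the highest mean in all 4 groups, at 483 ± 15.3 TMM value per kb in Het rods, 512 ± 36.4 in KO rods, 409 ± 54.4 in Het retina and 395 ± 42.5 in KO retina (SD, n = 3 in each). Adgrv1 stood at 209 ± 5.66 per kb in Het rods, 205 ± 8.92 in KO rods, 200 ± 16.5 in Het retina and 217 ± 34.1 in KO retina (SD, n = 3). Whrn stood at 175 ± 38 per kb in Het rods, 396 ± 104 in KO rods, 220 ± 140 in Het retina and 215 ± 79.6 in KO retina (SD, n = 3). The place of Whrn in the order therefore changed between groups: its libraries overlapped those of Adgrv1 in Het rods and in both retina groups, lay above them in KO rods, and overlapped those of Pcdh15 in KO rods and in Het retina. Myo7a was lower than these 3 genes in every group, at 18.3 ± 12.9 per kb in Het rods and 41.1 ± 7.28 in KO retina (SD, n = 3). Among the genes past the filter on low values in Het rods, Pcdh15 lay at percentile 81.7 per kb, Adgrv1 at 63.7, Whrn at 58.9 and Myo7a at 14. Ush1g, Ush1c and Cdh23 followed at means of at most 0.432 per kb in Het rods, where their libraries overlapped one another.

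**Figure D1:**
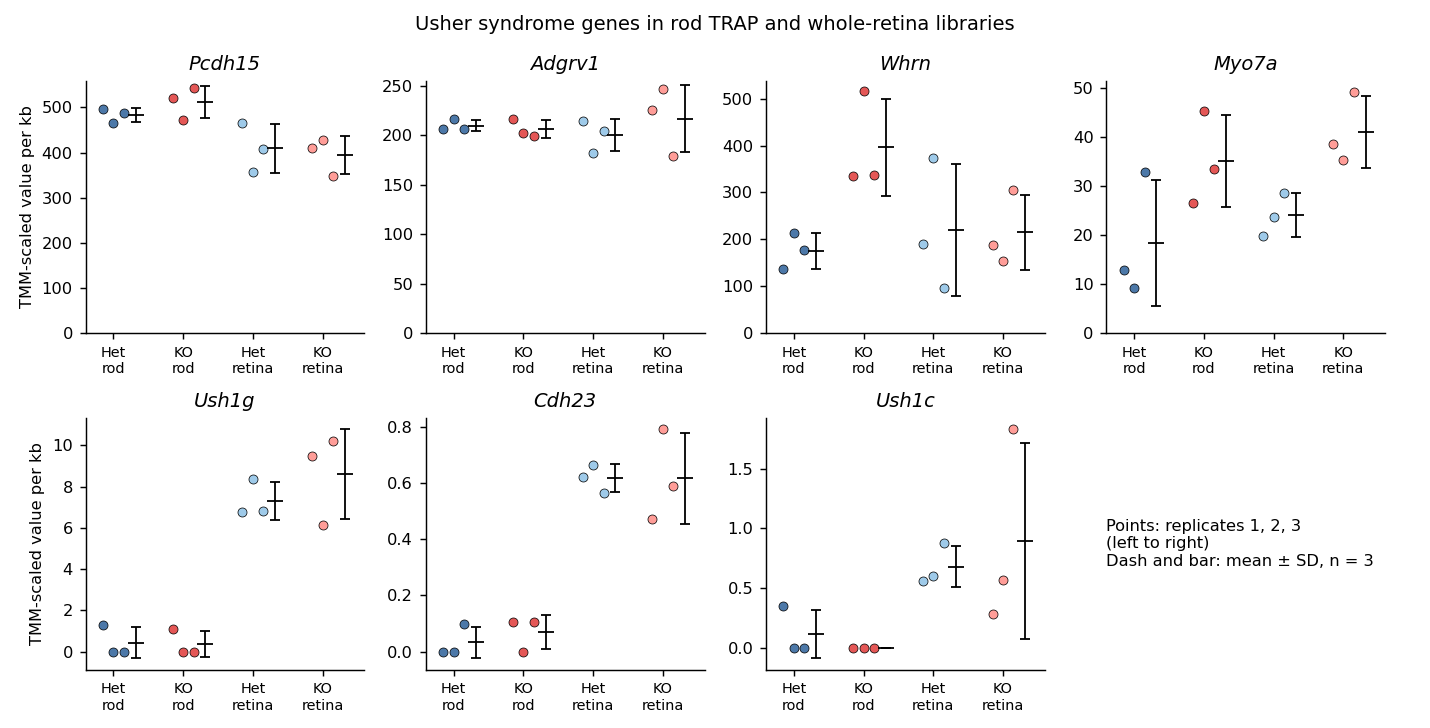
TMM-scaled value per kb of transcript (vertical axes, a separate scale for each gene) of the 7 Usher syndrome genes in the 4 groups (horizontal axes); points are single libraries and the dash with its bar is the mean ± SD of 3 libraries. At TMM scaling Pcdh15 and Adgrv1 differ little between groups, the 3 KO rod libraries of Whrn lie above the 3 Het rod libraries, and Ush1g, Cdh23 and Ush1c are near 0 in rods.

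Rods were first compared with the retina. Over 10 rod markers the median log2 fold change was 1.83 in Het and 2.02 in KO mice, and over 8 cone markers it was -1.08 and -0.84. A member near 0 lies below the rod marker median, and its value does not show which cells its RNA came from. In Het mice, 1 of the 5 members tested changed, Ush1g, which was lower in rods, beside 59% of the 16110 genes tested (22.7% higher and 36.4% lower). Ush1g passed the filter on low values only through the retina libraries, so that its test could only come out as lower in rods, and the count is a description. The TMM values of Adgrv1, 3977, 4170 and 3984 in Het rods, overlapped the 4138, 3516 and 3942 of Het retina. Its log2 fold change was 0.07 (SE 0.11, 95% CI -0.17 to 0.31, adjusted p = 0.6 in limma) and turned to -0.37 (adjusted p = 0.028) when libraries were scaled by their totals alone. Pcdh15 had TMM values of 4513, 4244 and 4438 in Het rods against 4235, 3245 and 3702 in Het retina. Every Het rod library was above every Het retina library, as for 29.5% of all genes tested, but the log2 fold change of 0.25 (SE 0.12, adjusted p = 0.11 in limma) missed the threshold and turned to -0.20 under library totals. The direction of both genes thus depended on the scaling, which moved the median log2 fold change of all genes by -0.44.

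In KO mice, Ush1g was lower in rods and Whrn was higher. Thus 2 of the 5 members tested changed, beside 63% of the 16121 genes tested (26.9% higher and 36.1% lower). Here too Ush1g passed the filter on low values only through the retina libraries, so that its test could only come out as lower. In KO rods Whrn had TMM values of 1356, 2091 and 1365, against 759, 620 and 1235 in KO retina, with every rod library above every retina library, as for 34.3% of genes. Its log2 fold change was 0.90 (SE 0.26, 95% CI 0.31 to 1.5, adjusted p = 0.013 in limma), and the call was lost in 1 fit over all 12 libraries (0.91, adjusted p = 0.061), under library totals (0.34, adjusted p = 0.25), without KO rod replicate 2 (0.70, adjusted p = 0.055) and without KO retina replicate 1 (0.81, adjusted p = 0.075). In Het mice, the same gene spread from 391 to 1509 in the retina, around Het rod values of 553, 861 and 716 (log2 fold change -0.14, SE 0.42, adjusted p = 0.79 in limma). Pcdh15 in KO mice had 4747, 4299 and 4946 in rods against 3726, 3898 and 3158 in retina. All 3 rod libraries were again the higher ones, by a log2 fold change of 0.37 (SE 0.12, adjusted p = 0.025 in limma) that stayed under the limit of 0.5 and turned to -0.19 under library totals. Adgrv1 overlapped between KO rods and KO retina, with a log2 fold change of -0.07 (SE 0.14, adjusted p = 0.67 in limma) that reached -0.63 (adjusted p = 0.0055) under library totals.

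The scaffold Ush1g and the cadherin Cdh23 were read in the retina and almost not in rods, in contrast to Pcdh15, the partner of Cdh23 in the tip link. Deposited values of Ush1g were 26, 30 and 25 in Het retina and 36, 23 and 36 in KO retina, whereas the rod libraries held 4, 0 and 0 (Het) and 3, 0 and 0 (KO). No rod library reached a retina library in either genotype, as for 39.3% of genes in Het and 38.9% in KO mice. The fitted log2 fold change was -3.16 (SE 0.47, adjusted p = 0.00044 in limma) in Het and -3.38 (SE 0.46, adjusted p = 0.00023) in KO mice. Its size depended on the pseudocount, from -4.54 with 0.5 to -1.81 with 8 in Het mice. In both genotypes the gene passed the filter only through the retina libraries, so these tests could only come out as lower and are a description. In estimated reads, the ratio of rods to retina was 0.0422 (95% exact interval 0.00853 to 0.128) in Het mice, from 3 reads against 83, and 0.0299 (0.00357 to 0.111) in KO mice, from 2 reads against 93. These intervals are exact conditional binomial intervals at TMM scaling and cover counting error only.

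Cdh23 did not reach the filter of a value of about 10 in 3 libraries and entered no test. Its deposited values were 8, 8 and 7 in Het retina and 6, 10 and 7 in KO retina, whereas the rod libraries held 0, 0 and 1 (Het) and 1, 0 and 1 (KO). No rod library reached a retina library, as for 39.3% of genes tested in Het and 38.9% in KO mice. The ratio of estimated reads was 0.0486 (95% exact interval 0.00118 to 0.298) in Het and 0.126 (0.0144 to 0.514) in KO mice. When every gene with a value was tested, Cdh23 was lower in rods in Het mice (log2 fold change -1.94, SE 0.36, adjusted p = 0.00076 in limma) and in KO mice (-1.66, SE 0.39, adjusted p = 0.0036). Its rod values of 0 and 1 lie below the value of 3 reads and below the pseudocount of 2. These calls therefore describe values at the floor in rods and add no support for a difference.

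Ush1c, which encodes the scaffold harmonin, had the lowest deposited values. It was listed at 2, 2 and 3 in Het retina and at 1, 2 and 6 in KO retina, against 1, 0 and 0 in Het rods and 0 in all KO rod libraries. The Het ratio of 0.167 had a 95% exact interval of 0.0037 to 1.3, so a difference was not detectable in Het mice at this depth, while in KO mice 0 estimated reads in rods against 10 in retina gave a 95% exact interval of the ratio from 0 to 0.62. The KO retina value rests mainly on replicate 3, which holds 6 of the summed 9. Without the filter on low values the log2 fold change of Ush1c was -0.82 (SE 0.33, adjusted p = 0.061 in limma) in Het and -1.10 (SE 0.37, adjusted p = 0.029) in KO mice. Its rod values were at the floor as well, so this too is a description. Fewer cells that express these genes and less of their RNA per cell cannot be told apart in bulk libraries.

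Myo7a, the motor of the type 1 complex, was present in both fractions. Het rods had TMM values of 96.5, 68.3 and 248 against 149, 178 and 216 in Het retina, and the third Het rod library was above all Het retina libraries. The log2 fold change was -0.59 (SE 0.43, 95% CI -1.57 to 0.38, adjusted p = 0.26 in limma), and without Het rod replicate 3 it was -1.12 (adjusted p = 0.01). The KO values of 199, 340 and 252 in rods overlapped those of 290, 266 and 370 in retina, a log2 fold change of -0.25 (SE 0.22, adjusted p = 0.33 in limma) that became -0.81 (adjusted p = 0.0077) under library totals. The summed TMM value of 11 RPE and pigment genes, which mark cells outside the rods that also express Myo7a, was 155 to 429 in Het rods, 52.2 to 805 in KO rods, 2355 to 10798 in Het retina and 808 to 19965 in KO retina. No marker was at 0 in all 3 libraries of a group, but single rod libraries held 0. Rpe65, for example, had deposited values of 0, 0 and 32 in KO rods. The sums of the Het rod libraries, in replicate order, were 162, 155 and 429, against 52.2, 152 and 805 for the KO rod libraries. The highest Myo7a value was in the library with the highest sum in Het rods and not in KO rods. The part of RPE RNA in the Myo7a values was not tested.

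**Figure D2:**
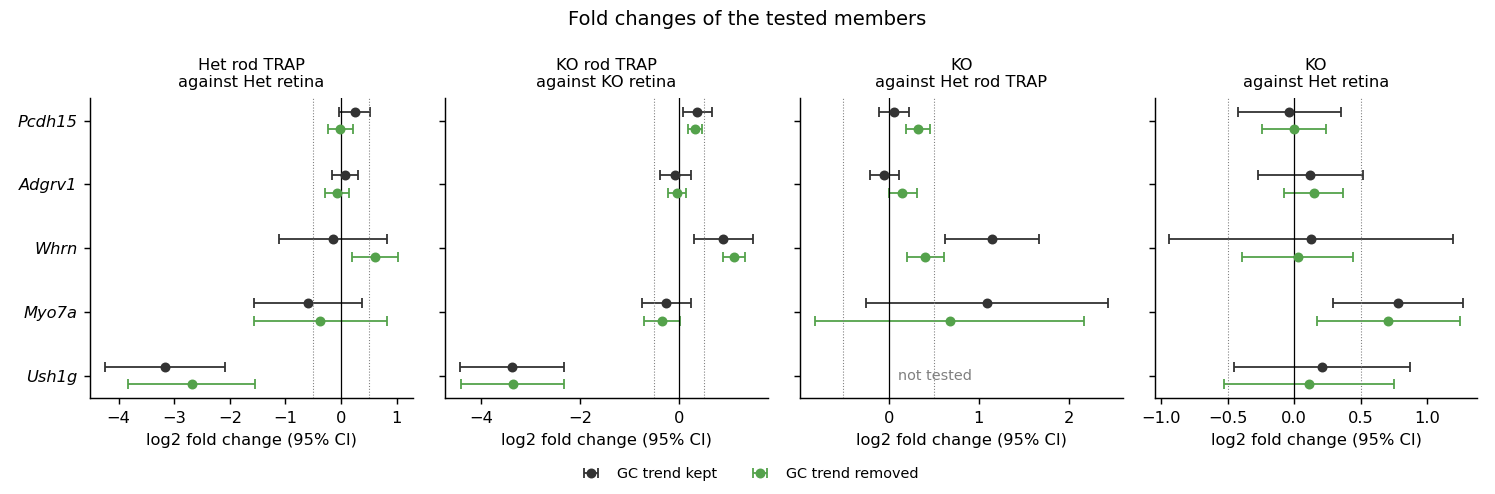
Log2 fold changes with 95% confidence intervals (horizontal axes) of the 5 tested members in 4 comparisons of 3 against 3 libraries, from limma on TMM-scaled values with each library's GC trend kept (black) or removed (green); dotted lines mark 0.5 in either direction. Ush1g lies far below 0 in rods against retina, and Whrn lies above 0 in KO rods against KO retina and in KO against Het rods; under library totals the values of Pcdh15 and Adgrv1 in Het rods against Het retina turn negative.

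Rod TRAP RNA was then compared between KO and Het mice. Of the 4 members tested in KO against Het rods, 1 was higher, Whrn, beside 13.6% of the 13055 genes tested, with 12.1% higher and 1.55% lower. The 3 KO rod libraries, at TMM values of 1356, 2091 and 1365, stood against Het libraries at 553, 861 and 716. The lowest KO library exceeded the highest Het library, as for 26.6% of genes, and the log2 fold change was 1.15 (SE 0.22, 95% CI 0.62 to 1.67, 2.21-fold, adjusted p = 0.013 in limma). Leaving out any 1 library gave 0.90 to 1.26 with adjusted p between 0.0028 and 0.038. In 1 fit over all 12 libraries, which takes in the wider spread of the retina libraries, the change was 1.17 with an adjusted p of 0.19, and 0 genes of the table were called.

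Whrn has the highest GC content of the 7 transcripts, and the libraries differed in how their values rose or fell with GC content. The GC trend of a library is given as the median log2 deviation from the mean of its fraction in the tenth of genes with the most GC, minus that in the tenth with the least. In Het rods the trends were -0.81, -0.23 and -0.42, against 0.42, 0.76 and 0.28 in KO rods, so that genotype and GC trend cannot be told apart among the rod libraries. The Whrn values of Het rods kept the order of these trends, and the highest KO value was in the library with the highest trend. Het retina had trends of -0.24, 0.86 and -0.83 with Whrn values of 773, 1509 and 391, and KO retina had trends of 0.01, -0.63 and 0.9 with Whrn values of 759, 620 and 1235. Over the 6 retina libraries Whrn was highest in the 2 libraries with the highest trends and lowest in the 2 with the lowest, with 1 library of each genotype in either pair.

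With the trend of each library removed, Whrn stood at 958, 1196 and 1065 in KO rods and at 734, 867 and 827 in Het rods, still without overlap. The log2 fold change was then 0.40 (SE 0.09, 95% CI 0.2 to 0.61, adjusted p = 0.017 in limma), under the limit of 0.5, and 2.7% of genes tested were higher. Pcdh15, whose transcript has the least GC of the members, moved the other way under this correction, from 0.06 (SE 0.08, adjusted p = 0.59 in limma) to 0.33 (SE 0.06, adjusted p = 0.0072), also under the limit. In Het rods against Het retina, the log2 fold change of Whrn went from -0.14 to 0.62 with the correction (SE 0.18, adjusted p = 0.013 in limma). The corrected values were 815, 995 and 946 in rods against 657, 741 and 435 in retina, and 23% of genes tested were higher. In KO mice the corrected change was 1.12 (SE 0.10, adjusted p = 8.3e-06 in limma), and 28.3% of genes tested were higher. The values were 1458, 1869 and 1601 in KO rods against 713, 776 and 770 in KO retina. The trend was removed among the libraries of each comparison alone. Corrected values of the same library therefore differ between comparisons and can be set side by side only within 1 comparison. The spread of Whrn between libraries of a group was narrower after the correction, and no rod library overlapped a retina library of the same genotype. The share of all genes without overlap was not computed after the correction.

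**Figure D3:**
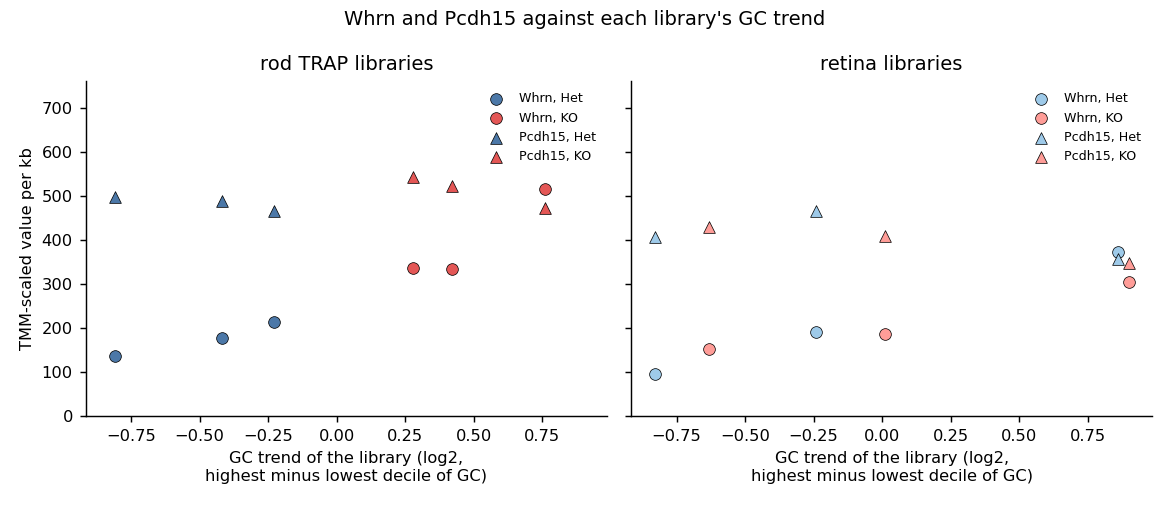
TMM-scaled value per kb (vertical axis) of Whrn (circles) and Pcdh15 (triangles) against the GC trend of each library on the log2 scale (horizontal axis), for the 6 rod TRAP libraries on the left and the 6 retina libraries on the right. In both fractions the highest Whrn values lie at the highest GC trends and the lowest at the lowest trends, while in rods the trends of the 3 Het libraries, -0.81 to -0.23, and of the 3 KO libraries, 0.28 to 0.76, do not overlap.

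The other members tested in KO against Het rods did not pass the test. Pcdh15 had TMM values of 4747, 4299 and 4946 in KO rods, which overlapped the 4513, 4244 and 4438 of Het rods. For Adgrv1 the values were 4171, 3897 and 3851 against 3977, 4170 and 3984, with a log2 fold change of -0.05 (SE 0.07, 95% CI -0.21 to 0.12, adjusted p = 0.68 in limma). These members had the smallest errors, and the 95% intervals of Pcdh15 (-0.11 to 0.23) and Adgrv1 lay within 0.5 in either direction at TMM scaling. Myo7a was 1.09 higher on the log2 scale (SE 0.53, 95% CI -0.25 to 2.43, adjusted p = 0.2 in limma), and its KO values of 199, 340 and 252 overlapped the third Het library at 248. Without Het rod replicate 3, the change of Myo7a was 1.62 (adjusted p = 0.013).

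In whole retina, rod mRNA is mixed with that of all other cells. There 0 of the 5 members tested and 0% of the 16863 genes tested changed between KO and Het in limma. An unadjusted p under 0.05 was reached by 140 genes, fewer than a share of 0.05 of those tested. The lack of calls does not show that the genotypes were alike. The TMM values of Myo7a were 290, 266 and 370 in KO retina against 149, 178 and 216 in Het retina, every KO library above every Het library, as for 1.46% of genes. Its log2 fold change was 0.78 (SE 0.21, 95% CI 0.29 to 1.27, adjusted p = 1 in limma) and lay between 0.64 and 0.92 whichever library was left out. The summed RPE and pigment value was 808, 2068 and 19965 in KO retina against 3372, 2355 and 10798 in Het retina. In the same replicate order, Myo7a was at 290, 266 and 370 in KO retina and at 149, 178 and 216 in Het retina. In both groups the library with the highest sum had the highest Myo7a value, and that with the lowest sum did not have the lowest. The part of RPE RNA was not tested here either. With the GC trend removed, the KO retina values of Myo7a were 327, 359 and 322, above the Het values of 186, 152 and 304. The corrected log2 fold change was 0.71 (SE 0.24) and was not called. How many of all genes were without overlap after the correction was not computed. Whrn (log2 fold change 0.13, SE 0.46), Adgrv1 (0.12, SE 0.17), Ush1g (0.21, SE 0.28) and Pcdh15 (-0.04, SE 0.17) overlapped between the genotypes, each with an adjusted p of 1 in limma.

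A difference of the KO effect between the fractions was tested by an interaction term in a fit of the 12 libraries together, in which 0 of 5 members and 0% of the 17192 genes tested passed in limma, with 519 genes at an unadjusted p under 0.05. For Whrn the effect was larger in rods by 1.05 on the log2 scale (SE 0.57, 95% CI -0.2 to 2.3, adjusted p = 0.89 in limma), so the change in rods was not shown to differ from that in retina. For Myo7a the difference was 0.35 (SE 0.53, adjusted p = 0.92 in limma). The median log2 fold change of the members beside that of all genes was -0.14 and -0.08 in Het rods against retina, -0.07 and 0.01 in KO rods against retina, 0.58 and 0.01 in KO against Het rods, and 0.13 and 0.01 in KO against Het retina. No member lay near the median of 0.58, which falls between Whrn (1.15) and Myo7a (1.09, not called) and Pcdh15 (0.06) and Adgrv1 (-0.05). It does not show a shift of the members together.

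Proteins that bind the Usher complexes were followed as a list of 14 genes, of which 13 were in the table used here. In Het rods against Het retina, 2 were higher, 5 were lower and 6 did not pass, with a median log2 fold change of -0.44, beside 22.7% of all genes that were higher and 36.4% that were lower. Cib2 and Pdzd7 passed the filter on low values only through the retina libraries. Eps8, an actin-capping protein of stereocilia, had TMM values of 2093, 1996 and 1730 in Het rods against 822, 784 and 698 in Het retina (log2 fold change 1.33, SE 0.12, adjusted p = 2.9e-05 in limma). Myrip, which links myosin VIIa to granules carrying Rab27a and was named after its values were seen, was the other gene that was higher (0.85, SE 0.20, adjusted p = 0.0058 in limma). For both genes every Het rod library exceeded every Het retina library, as for 29.5% of all genes. Lower in rods were Cib2, a calcium-binding protein of the hair-cell transduction complex (-4.50, SE 0.34), Pdzd7, a scaffold related to whirlin and harmonin (-2.04, SE 0.34), Espn, an actin-bundling protein (-2.75, SE 0.40), Spag5 (-3.73, SE 0.32) and Lrrc4c, a synaptic adhesion protein (-4.51, SE 0.25). Cib2, for example, had TMM values of 2.14, 6.61 and 6.52 in Het rods against 145, 156 and 147 in Het retina. The same list in KO mice gave 2 higher, 5 lower and 6 that did not pass, with a median of -0.24. Of all genes tested there, 26.9% were higher and 36.1% were lower. Cib2 passed the filter only through the retina libraries in KO mice as well.

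In KO against Het rods, 1 of the 11 partners tested was higher and 0 were lower, beside 12.1% and 1.55% of all genes. The higher gene was Espn, at TMM values of 49.9, 62.7 and 24.6 in KO rods against 15, 18.7 and 8.69 in Het rods (log2 fold change 1.49, SE 0.38, adjusted p = 0.016 in limma). The KO rod libraries alone met the filter on low values, with deposited values of 42, 52 and 21. The Het rod libraries alone did not, at 14, 17 and 8, so Espn needed KO libraries to enter this test. The Espn transcript holds 62.1% GC, close to that of Whrn, and the call was lost with the GC trend removed (0.77, adjusted p = 0.15), in 1 fit over all 12 libraries (1.52, adjusted p = 0.19), and without KO rod replicate 1 (1.38), KO rod replicate 2 (1.19) or Het rod replicate 3 (1.22), each with an adjusted p of 0.058. Against retina, the log2 fold change of Espn in rods was -2.75 in Het and -1.50 in KO mice. The alternative that removed rod-depleted genes held no value for Espn. In KO against Het retina, 0 of 13 partners passed.

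A second list held 7 paralogues and homologues of the Usher genes, most of which form the intermicrovillar links of the gut. In Het rods against retina 2 of the 7 passed the filter on low values. Cdhr1, a photoreceptor cadherin of the outer segment base, had TMM values of 98465, 98076 and 97220 in Het rods against 29272, 27069 and 25329 in Het retina (log2 fold change 1.85, SE 0.10, adjusted p = 1.7e-06 in limma). Pdzd7, which is on both lists, was lower. In KO mice the changes of the same pair were 1.97 (SE 0.12) and -1.27 (SE 0.34). The gut homologues Myo7b, Anks4b, Cdhr2 and Cdhr5 were listed at a deposited value of at most 9 in every library, and Calml4 at up to 70 in retina and at most 3 in rods.

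**Figure D4:**
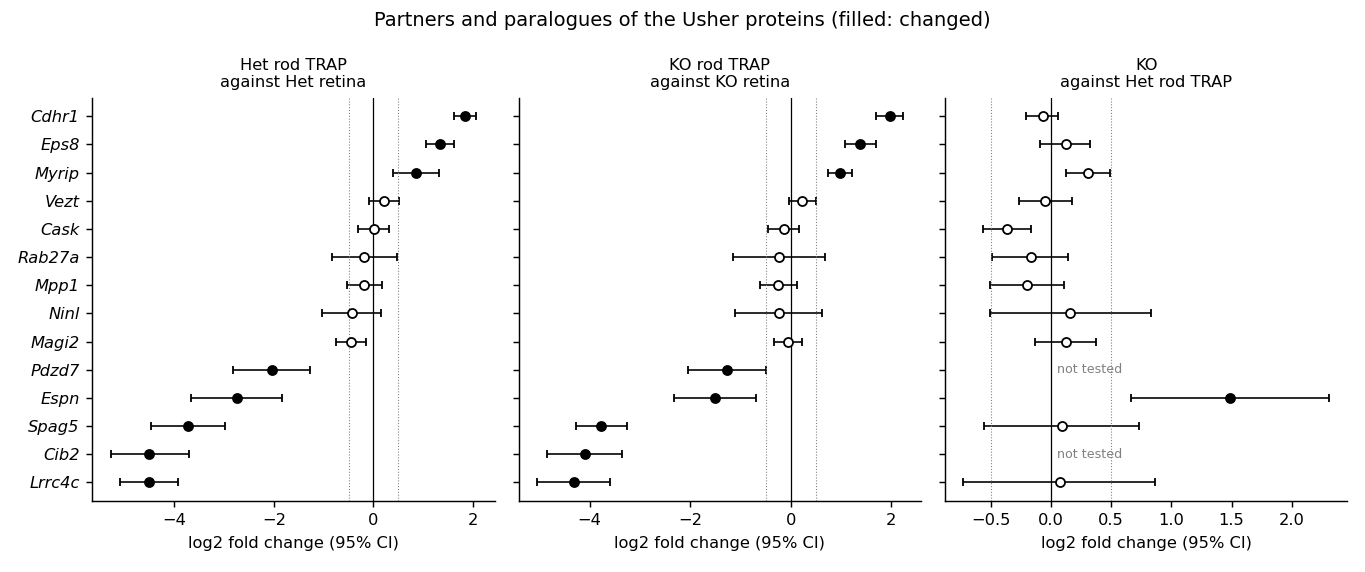
Log2 fold changes with 95% confidence intervals (horizontal axes) of the 14 tested genes of the partner and paralogue lists in Het rods against Het retina, KO rods against KO retina and KO against Het rods; filled points passed the test and dotted lines mark 0.5 in either direction. Cdhr1, Eps8 and Myrip lie above 0 in rods, Lrrc4c, Cib2, Spag5, Espn and Pdzd7 lie below 0, and Espn alone is filled in KO against Het rods.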

How the data were processed

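RNA-seq values of 12 libraries were used, grouped by the genotype and tissue labels, with replicate numbers from the titles. Per the submitters' processing notes, CASAVA 1.8.2, HISAT2, DESeq2 and edgeR were used, with the build GRCm39. The role of each, the counting tool and the strand of counting are not given in the sources used here, nor is the library RNA's mouse of origin. The deposited values were treated as a signal: the reads of each library appear to have been multiplied by 1 factor, 0.6437 to 1.4558, and rounded, which was inferred from the values and is not stated by the authors. Table columns of other samples numbered 0.

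TMM factors were computed by code of this re-analysis, log2(scaled value + 2) was taken, and limma 3.58.1 in R 4.3.3 was run with trend and robust options. No count model was used because of the scaling. The filter on low values asked for about 10 in 3 or more of the libraries compared and for a sum of 15 or more. Each fit held the 2 groups it compared, and the interaction all 4. GC trends were removed library by library with a natural spline of 5 degrees of freedom, fitted to the deviations from the gene means of each fit. Lengths, GC content and chromosomes came from GENCODE M21 on GRCm38, matched by Ensembl identifier. With 3 against 3 libraries the smallest exact permutation p is 0.1, so none was used. The scripts were tested on simulated data. Figures were drawn with matplotlib 3.10.9 in Python 3.11.15.

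The members and gene lists were chosen with earlier results of these data known. Named genes were the 7 members, Ptpn11, from each list at most the 6 genes with the largest change among those changed in Het rods against retina and every one changed in KO against Het rods, and the genes most alike to a member across libraries, some of which are not reported here. Replicates in a group correlated at 0.92 to 0.987 and 0 pairs were identical. Same-numbered Het rod and Het retina libraries deviated together (correlations 0.47, 0.41 and 0.25). The numbers, taken from the titles, were treated as pairing them only in the replicate block, an alternative. The main fits, with their SE and p-values, were unpaired. The other comparisons had a lowest pair correlation of -0.58 to 0.03. Alternatives were other scalings (RLE, library totals), pseudocounts of 0.5 and 8, no filter, a replicate block, removal of the GC trend, 1 fit over all 12 libraries, removal of rod-depleted genes and leaving out each library.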

Additional observations from a re-analysis of the deposited data

How the results depend on the processing

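Depth limits Ush1g, Cdh23 and Ush1c, which rest on few reads in rods, and the GC trend of the libraries limits Whrn. Scaling by library totals shifted the median log2 fold change by -0.44, -0.56, -0.11 and -0.02 against TMM (Het rods against retina, KO rods against retina, KO against Het rods, KO against Het retina), and the share of calls that were higher fell from 38.4% to 13.6%, from 42.8% to 12.7% and from 88.7% to 67.3% in the first 3.

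Of 5 members, the count changed in Het rods against retina was 1, and 2 without the filter (Cdh23), with the GC trend removed (Whrn, 0.62) and with that and the replicate block (0.62, adjusted p = 0.0053 in limma). It was 0 to 2 when 1 library was left out, 0 without any 1 Het retina library because Ush1g, like in KO mice without a KO retina library, then failed the filter, and 2 without Het rod replicate 3 (Myo7a). In KO rods against retina it was 2, then 4 without the filter, 3 under library totals (Ush1g, Myo7a at -0.81 and Adgrv1 at -0.63, all lower, without Whrn), 1 in 1 fit over all 12 libraries and 0 to 2 when 1 library was left out; the calls over all genes were 10154, and 6550 to 9563. In KO against Het rods it was 1, then 0 with the GC trend removed, 0 with that and the block, 0 in the fit over all 12 libraries and 1 to 2 when 1 library was left out. The calls over all genes there were 1781, then 446, 508 and 0, and 1066 (without Het rod replicate 1) to 1966, with 1186 without KO rod replicate 2. KO against Het retina gave 0 calls, and 0 to 1 with 1 library left out, and the interaction 0, and 0 to 1. The causes were not tested where no filter or sample number is named.

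Directions turned for genes that were not called. Library totals gave -0.20 for Pcdh15, -0.37 for Adgrv1 and -0.09 for Ptpn11 in Het rods against retina, -0.19 for Pcdh15 and -0.39 for Ptpn11 in KO rods against retina, and -0.04 for Pcdh15 in KO against Het rods. Removal of the GC trend, with and without the block, gave -0.01 for Pcdh15, -0.07 for Adgrv1 and 0.62 for Whrn in Het rods against retina, 0.15 for Adgrv1 in KO against Het rods, 0 for Pcdh15 in KO against Het retina and 0.03 for Adgrv1 in the interaction. Leaving out 1 library gave ranges that crossed 0 for Whrn (-0.52 to 0.38) in Het rods against retina, Adgrv1 (-0.24 to 0.04) in KO rods against retina, Pcdh15 (-0.16 to 0.08), Whrn (-0.35 to 0.59) and Ptpn11 (-0.12 to 0.02) in KO against Het retina, and Ush1g (-0.77 to 0.32), Myo7a (-0.04 to 0.88) and Pcdh15 (-0.07 to 0.19) in the interaction.

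The replicate block pairs Het rods with Het retina and there gave 9945 calls against 9505 and Ush1g at -3.16 (adjusted p = 0.00033 in limma). The numbers were not taken to pair the samples of the other comparisons, where the block gave 9982, 1911, 0 and 0 calls. Summed TMM values of the lens genes nevertheless rose in the same replicate order in both KO fractions. They were 2300, 4628 and 16538 in KO rods and 58359, 141099 and 741061 in KO retina. Whether same-numbered KO libraries came from the same mice is not given. The block changed no call of a member with the GC trend kept. A block of genotype and number, chosen after seeing the data, changed no call in the interaction.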

Other observations

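Across the 12 libraries, the genes whose log2 values were most like those of each member were found among 12143 genes (12144 for Ush1g) as a description, by Pearson's r without a test, over libraries that share fractions, genotypes and GC trends. For Whrn they were Lmbr1l (r = 0.990) and Sbf1 (0.988), whose transcripts hold 57.7% and 58.7% GC. For Pcdh15 they were Aste1 (0.965), Slc38a9 (0.964) and Baz2b (0.959), with 46.4%, 44.7% and 46.4% GC. For Adgrv1 they were Gm29170 (0.943) and Rev1 (0.909), and for Myo7a they were Slc29a1 (0.923), Rps2-ps8 (0.884) and Gm12366 (0.868). Cd83 was most like Ush1g (r = 0.981), over values that differ mainly between the fractions.

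The promoter table held 2 starts for Myo7a, and the 250 bases before one of them held 2 matches to TGCTGA and those before the other held 0. The promoters of Ush1c and Cdh23 held 0 matches to either motif.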
